A study of Arabidopsis thaliana with 12 samples.

Results

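With 12 named genes set aside, 61 of the 11417 Arabidopsis thaliana genes listed in any of the authors' comparisons met a rule on light. In both 35S:miR396a and Col-0 seedlings, their illuminated mean was at least 5 FPKM and at least 4 times the dark mean. FPKM counts fragments per unit of transcript length and of library size, so it can be set side by side between genes. Seedlings had spent 4 days in darkness on MS medium with 1% sucrose and then received 3 h of light or none. The groups were illuminated 35S:miR396a, dark 35S:miR396a, illuminated Col-0 and dark Col-0, with 3 libraries called biological replicates in each, 12 in all. Col-0 is the Columbia wild type. 35S:miR396a expresses the microRNA miR396a from the 35S promoter of a plant virus, which is active in most tissues, so the microRNA is made outside the cells that normally make it. The number of independent lines behind it is not given in the sources used here.

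When a dark-grown seedling meets light, photoreceptors inactivate the factors that hold it in its elongated, pale form. The seedling then slows hypocotyl growth, turns its etioplasts into chloroplasts and builds pigments and antioxidants against excess light. Surface and boundary tissues of the seedling carry lipid barriers, among them cutin and suberin, polyesters of fatty acids and glycerol. miR396 restrains growth-regulating factors, transcription factors of cell proliferation.

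The 61 genes were chosen by their own light-to-dark ratios, so those ratios describe them and support nothing. All 4 group means were known for 6223 genes, and 64 of these met the rule. The rule sets aside 12 named genes, most of them in flavonoid synthesis, and 3 of these were among the 64: F3H (AT3G51240), DIR1 (AT5G48485) and LHCB1.1 (AT1G29920). The Col-0 conditions alone were met by 387 genes and the 35S:miR396a conditions alone by 500, so the 64 made up 16.5% of the Col-0 genes and 12.8% of the 35S:miR396a genes. Members lay on chromosomes 1 to 5 with 14, 9, 10, 13 and 15 genes, and all 61 were protein-coding.

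Near the limits of the rule the values ran close. In illuminated Col-0, AT1G05450, AT3G52740 and ABCG23 were just inside at 5.32, 5.42 and 5.66 FPKM, and CYP89A2, HOS3-1 and FAR5 just outside at 4.98, 4.71 and 3.99 FPKM. In illuminated 35S:miR396a, AT3G52740, AT5G01015 and FBA5 were inside at 5.02, 5.37 and 7.29 FPKM, and scpl10, RbcX1 and TIR outside at 4.60, 3.98 and 3.97 FPKM. By the light ratio in 35S:miR396a, AT2G23910, THI1 and AMT1;2 were inside at 4.14, 4.19 and 4.28, and PES1, KEA3 and GLDP1 outside at 3.99, 3.85 and 3.80. By the light ratio in Col-0, EDA4, AT2G47890 and RUP2 were inside at 4.02, 4.04 and 4.24, and RWP1, AT4G17215 and AT3G21690 outside at 3.97, 3.94 and 3.91.

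The files give each group as the authors' mean, so levels stand without SD or n, and no difference could be set against the replicate spread. A gene is called listed where the authors' deposited table holds it, at over 2-fold and a q-value under 0.001. Those q-values carry the counting error of pooled reads alone, since the replicate spread does not enter them. Pooled depth, estimated from the deposited folds and p-values, had a median of 122000000 fragments for illuminated 35S:miR396a, 118000000 for dark 35S:miR396a, 118000000 for illuminated Col-0 and 117000000 for dark Col-0. At this depth 12 of the 61 genes rested on an estimate of under 100 pooled fragments in a dark group, so the precision of their ratios is lower. The labels call the tissue hypocotyl. Cotyledon-type photosynthesis transcripts were abundant in all groups, with LHCB1.3 at 4561, 17768, 12745 and 11174 FPKM in illuminated 35S:miR396a, dark 35S:miR396a, illuminated Col-0 and dark Col-0. All 5 green-tissue markers were listed lower in illuminated 35S:miR396a than in illuminated Col-0. In bulk RNA, fewer cells of a type and less RNA per cell cannot be told apart.

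The 250 bases upstream of the annotated start are shown for 6 of the genes, read on the gene's own strand from the TAIR10.1 assembly. NDA1 and MSRB6 had the largest light ratios in 35S:miR396a, GPAT5 belongs to the suberin pathway, CDSP32 differed strongly between the genotypes in the light, and RUP2 acts in light signalling. These 5 were picked, with their values known, from the genes whose window holds the E-box CACATG or its reverse complement CATGTG, given in capitals.
NDA1, chr1:2203854-2204103, plus strand: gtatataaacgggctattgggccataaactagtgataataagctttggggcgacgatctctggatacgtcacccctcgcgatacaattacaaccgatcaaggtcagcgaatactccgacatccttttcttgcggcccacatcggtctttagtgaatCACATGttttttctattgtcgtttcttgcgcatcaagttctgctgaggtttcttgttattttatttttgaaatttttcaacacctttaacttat
MSRB6, chr4:2449184-2449433, plus strand: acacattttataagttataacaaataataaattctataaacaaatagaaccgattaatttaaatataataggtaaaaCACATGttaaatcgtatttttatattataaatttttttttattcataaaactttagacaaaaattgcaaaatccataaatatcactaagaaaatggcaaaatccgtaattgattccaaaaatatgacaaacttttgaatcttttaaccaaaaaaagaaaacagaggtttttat
GPAT5, chr3:3595444-3595693, plus strand: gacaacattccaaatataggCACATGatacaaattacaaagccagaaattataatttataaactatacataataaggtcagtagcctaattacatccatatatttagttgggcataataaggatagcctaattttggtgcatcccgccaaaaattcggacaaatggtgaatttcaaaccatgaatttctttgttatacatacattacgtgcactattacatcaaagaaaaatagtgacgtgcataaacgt
CDSP32, chr1:28549587-28549836, minus strand: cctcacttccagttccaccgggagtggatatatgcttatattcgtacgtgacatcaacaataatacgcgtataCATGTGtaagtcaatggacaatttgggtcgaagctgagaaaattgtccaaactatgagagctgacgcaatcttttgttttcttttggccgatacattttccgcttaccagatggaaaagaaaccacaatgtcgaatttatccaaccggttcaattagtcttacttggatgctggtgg
RUP2, chr5:8004847-8005096, plus strand: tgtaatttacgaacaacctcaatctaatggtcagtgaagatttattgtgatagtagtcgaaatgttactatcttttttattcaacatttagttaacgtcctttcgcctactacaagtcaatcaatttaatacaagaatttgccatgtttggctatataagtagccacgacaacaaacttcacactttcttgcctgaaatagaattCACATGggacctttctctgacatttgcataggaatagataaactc
The sixth, CHIL, holds the G-box CACGTG, the classic light-responsive hexamer, in capitals.
CHIL, chr5:1563036-1563285, plus strand: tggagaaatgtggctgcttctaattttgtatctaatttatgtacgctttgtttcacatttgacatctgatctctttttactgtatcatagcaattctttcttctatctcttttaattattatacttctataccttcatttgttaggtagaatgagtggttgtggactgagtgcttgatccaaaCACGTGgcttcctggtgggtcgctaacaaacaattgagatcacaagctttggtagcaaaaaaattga
The motif began 94 bases before the start in NDA1, 173 in MSRB6, 230 in GPAT5, 177 in CDSP32, 45 in RUP2 and 67 in CHIL.

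Illuminated means ran from 5.02 FPKM (AT3G52740) through a median of 27.3 to 3252 FPKM (COR413-PM1) in illuminated 35S:miR396a, with a median of 2.66 FPKM in dark 35S:miR396a. In Col-0 they ran from 5.32 (AT1G05450) through 22.7 to 1465 FPKM (COR413-PM1) in the light, with a median of 2.66 FPKM in the dark. No gene was at 0 in the dark, and 13 genes in 35S:miR396a and 10 in Col-0 lay under 1 FPKM there. The light ratio had a lowest, median and highest value of 4.14, 10.1 and 316 in 35S:miR396a and of 4.02, 7.05 and 617 in Col-0. Over the 6004 genes with 4 means above 0 the median ratios were 0.965 and 0.786. All 61 genes were listed higher after light in both genotypes, where 32.2% of the 6223 genes were listed higher in 35S:miR396a and 25.4% in Col-0. The rule fixed this outcome. Listed lower after light were 30.1% of the 6223 in 35S:miR396a and 36.1% in Col-0. The ratio was larger in 35S:miR396a for 41 genes and larger in Col-0 for 20, and it was 10 or more in both genotypes for 13.

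**Figure D1:**
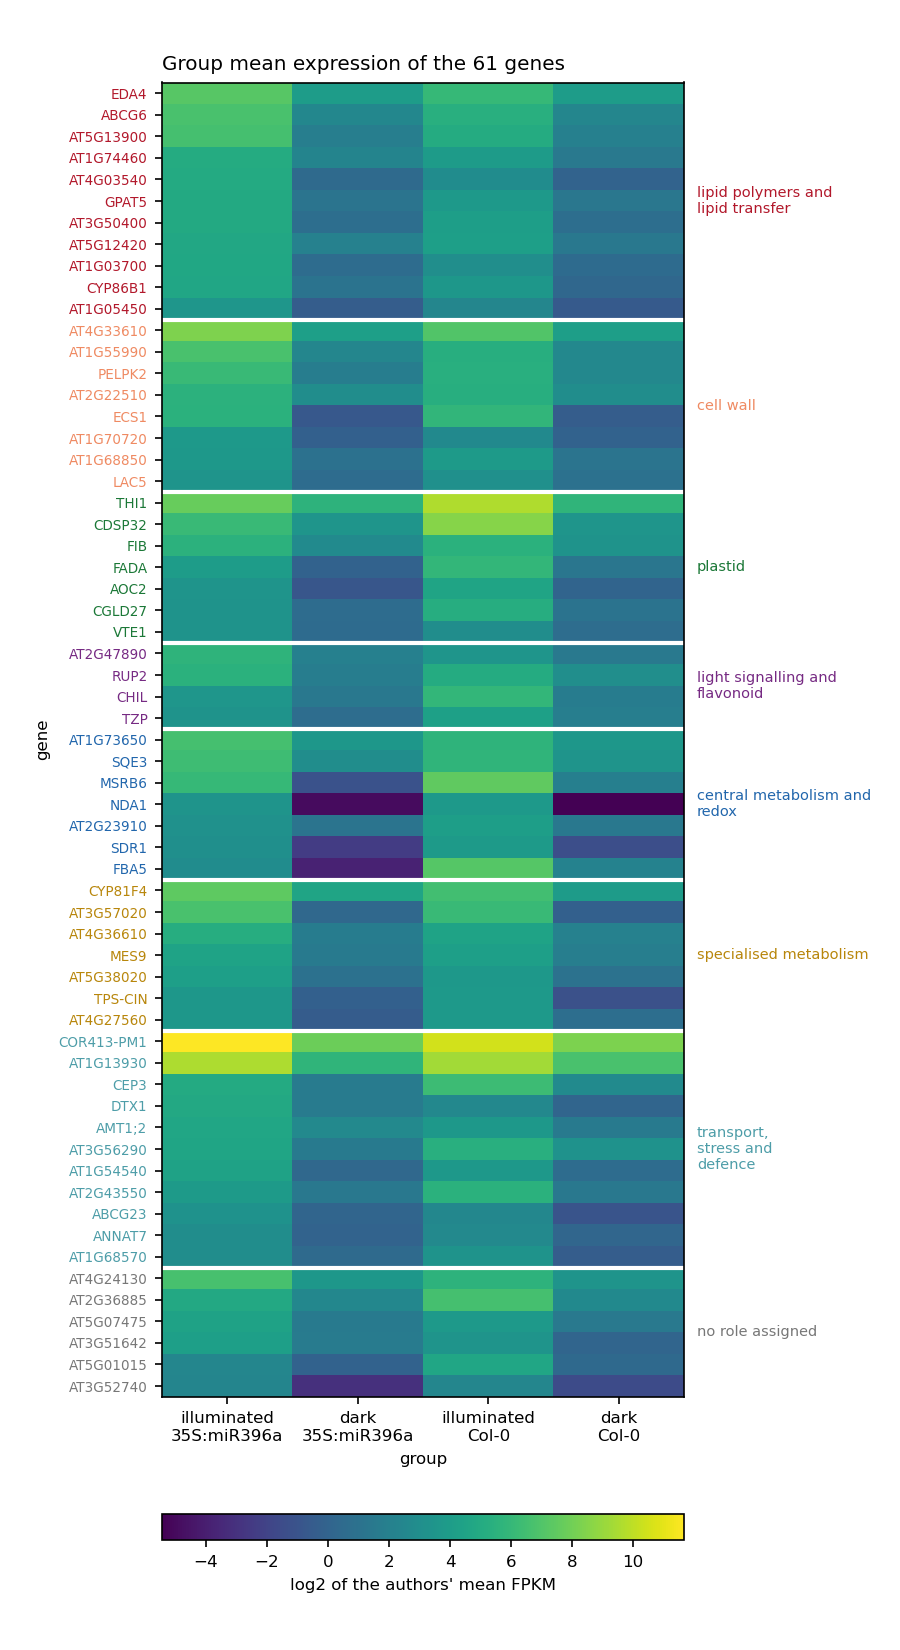
Heat map of the authors' mean FPKM (log2 colour scale, no error available) for the 61 genes (rows, grouped and coloured by role) in the 4 groups (columns). Both illuminated columns are brighter than their dark columns in every row, and COR413-PM1 is the brightest at 3252 FPKM in illuminated 35S:miR396a.

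The 3 largest light ratios in 35S:miR396a belonged to NDA1, MSRB6 and FBA5, genes of redox and carbon metabolism. NDA1 (AT1G07180, chromosome 1, 2204104 to 2207099, 8 exons), an alternative NAD(P)H dehydrogenase of mitochondria, had 10.4 FPKM in illuminated and 0.033 FPKM in dark 35S:miR396a, against 14.2 FPKM in illuminated and 0.023 FPKM in dark Col-0. Its ratios of 316 and 617 rest on an estimate of 8 pooled fragments in dark 35S:miR396a and 6 in dark Col-0, so their size is imprecise. MSRB6 (AT4G04840, chromosome 4, 2449434 to 2451651), a reductase that repairs oxidised methionine, had 64.9 FPKM in illuminated and 0.453 FPKM in dark 35S:miR396a, against 178 FPKM in illuminated and 3.87 FPKM in dark Col-0.

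FBA5 (AT4G26530, chromosome 4, 13390754 to 13393265), a fructose-bisphosphate aldolase, showed the widest gap between genotypes of all 61. It had 7.29 FPKM in illuminated and 0.070 FPKM in dark 35S:miR396a, against 141 FPKM in illuminated and 4.36 FPKM in dark Col-0, so light multiplied it by 104 and 32.3 while the level in illuminated 35S:miR396a was 0.0517 times that in illuminated Col-0. The ratio of 104 rests on an estimate of 18 pooled fragments in dark 35S:miR396a, so its size is imprecise. An annotated gene on the same strand (AT4G26520) overlaps FBA5 by 109 bases. SDR1, a short-chain dehydrogenase/reductase, had 8.63 FPKM in illuminated and 0.186 FPKM in dark 35S:miR396a, against 14.6 FPKM in illuminated and 0.400 FPKM in dark Col-0. NDA1, MSRB6, FBA5 and SDR1 were all under 1 FPKM in dark 35S:miR396a. SQE3, a squalene epoxidase of sterol synthesis, had 81.1 FPKM in illuminated and 7.78 FPKM in dark 35S:miR396a, against 54.4 FPKM in illuminated and 10.6 FPKM in dark Col-0. AT1G73650, annotated as a steroid dehydrogenase-like protein, had 97.1 FPKM in illuminated and 12.3 FPKM in dark 35S:miR396a, against 52.0 FPKM in illuminated and 11.98 FPKM in dark Col-0. AT2G23910, an NAD(P)-binding protein, had 9.23 FPKM in illuminated and 2.23 FPKM in dark 35S:miR396a, against 17.9 FPKM in illuminated and 2.63 FPKM in dark Col-0. The 7 genes of this group had median light ratios of 46.4 in 35S:miR396a and 32.3 in Col-0, the highest of the role groups.

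**Figure D2:**
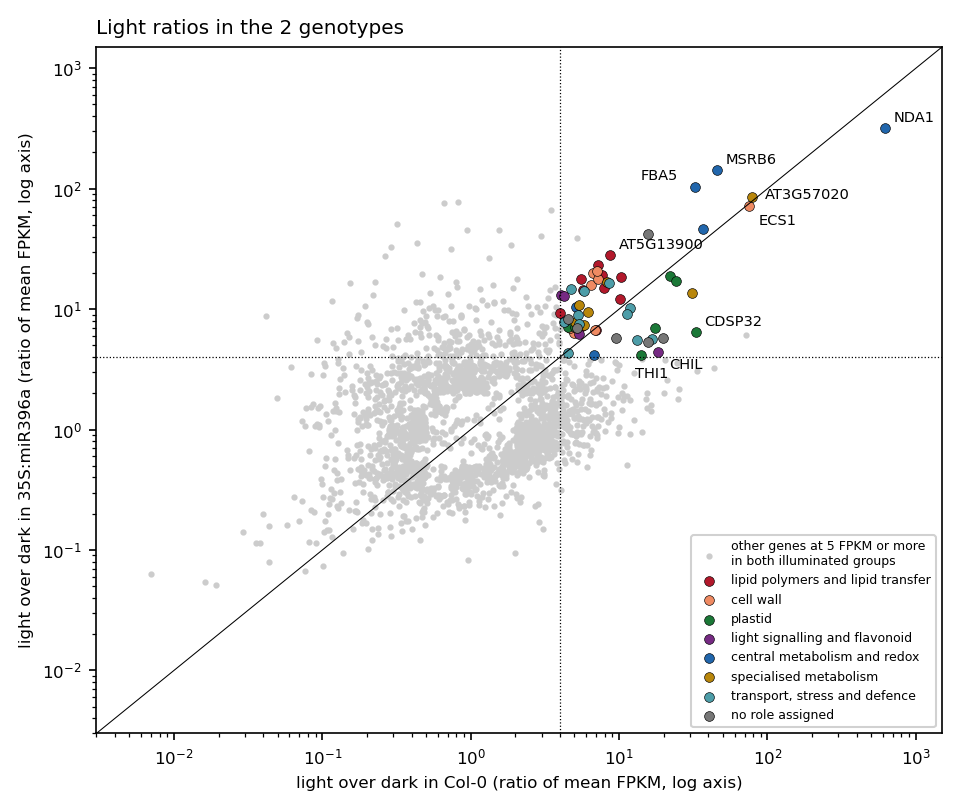
Ratio of illuminated to dark mean FPKM in 35S:miR396a (vertical, log axis) against that in Col-0 (horizontal, log axis) for the 61 genes (coloured by role) and for other genes with at least 5 FPKM in both illuminated groups (grey), with dotted lines at 4 and a diagonal of equal ratios. NDA1 lies far out at 316 and 617, 10 of the 11 lipid-polymer genes lie above the diagonal and 5 of the 7 plastid genes, CDSP32 among them, below it; the empty centre is there because the tables hold called genes only.

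Across the 61 genes the log2 light ratios of the genotypes had a Pearson r of 0.654 and a Spearman rho of 0.296. This describes genes measured in the same libraries, and genes are not independent replicates.

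A group of 11 genes was formed around the lipids of surface polymers. Most have roles, known or annotated, in making, exporting or binding these lipids. AT4G03540 and AT1G03700, of the CASP-like membrane proteins, were included without such a role. The role groups were assigned after the values were seen. GPAT5 (AT3G11430, chromosome 3, 3595694 to 3597952), an acyltransferase that links fatty acids to glycerol for suberin, had 31.5 FPKM in illuminated and 2.17 FPKM in dark 35S:miR396a, against 14.3 FPKM in illuminated and 2.49 FPKM in dark Col-0. CYP86B1 (AT5G23190, chromosome 5, 7803141 to 7805968), the P450 that hydroxylates very-long-chain suberin acids, had 25.8 FPKM in illuminated and 2.15 FPKM in dark 35S:miR396a, against 12.4 FPKM in illuminated and 1.22 FPKM in dark Col-0. ABCG6 (AT5G13580, chromosome 5, 4370692 to 4373201), a transporter needed for suberin, had 106 FPKM in illuminated and 5.55 FPKM in dark 35S:miR396a, against 40.0 FPKM in illuminated and 5.25 FPKM in dark Col-0. The levels of GPAT5, ABCG6 and CYP86B1 in dark 35S:miR396a were 0.872, 1.06 and 1.76 times those of dark Col-0 and were not listed as different. Their illuminated levels were 2.20, 2.66 and 2.09 times those of illuminated Col-0.

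The remaining genes of this group encode lipid-transfer proteins, GDSL lipases, an acyltransferase and CASP-like membrane proteins. EDA4, the most abundant lipid-transfer gene here, had 147 FPKM in illuminated and 16.0 FPKM in dark 35S:miR396a, against 65.4 FPKM in illuminated and 16.3 FPKM in dark Col-0. AT5G13900, also of the lipid-transfer family, had 101 FPKM in illuminated and 3.61 FPKM in dark 35S:miR396a, against 34.3 FPKM in illuminated and 3.94 FPKM in dark Col-0. AT1G05450 of the same family had lower levels, at 11.5 FPKM in illuminated and 0.770 FPKM in dark 35S:miR396a, against 5.32 FPKM in illuminated and 0.673 FPKM in dark Col-0. EDA4, AT5G13900 and AT1G05450 had light ratios of 9.19, 27.9 and 14.9 in 35S:miR396a and of 4.02, 8.71 and 7.90 in Col-0. Both CASP-like genes showed large genotype ratios in the light, with AT4G03540 at 32.9 FPKM in illuminated and 1.41 FPKM in dark 35S:miR396a, against 7.34 FPKM in illuminated and 1.02 FPKM in dark Col-0. AT1G03700 had 27.3 FPKM in illuminated and 1.53 FPKM in dark 35S:miR396a, against 8.12 FPKM in illuminated and 1.47 FPKM in dark Col-0. In the light AT4G03540 and AT1G03700 thus stood at 4.48 and 3.37 times Col-0, and in the dark at 1.39 and 1.05 times. The GDSL lipase AT1G74460 had 34.7 FPKM in illuminated and 4.82 FPKM in dark 35S:miR396a, against 15.7 FPKM in illuminated and 2.81 FPKM in dark Col-0. Another GDSL lipase, AT3G50400, had 31.0 FPKM in illuminated and 1.68 FPKM in dark 35S:miR396a, against 17.43 FPKM in illuminated and 1.70 FPKM in dark Col-0. The WSD1-like acyltransferase AT5G12420 had 28.8 FPKM in illuminated and 4.28 FPKM in dark 35S:miR396a, against 18.6 FPKM in illuminated and 2.66 FPKM in dark Col-0. Of the 11 genes, 9 were listed higher in illuminated 35S:miR396a than in illuminated Col-0 and none lower, in a group put together with the values known. The CASP-like AT4G03540 and AT1G03700 are among the 9. Over all 6223 genes 42.3% were listed higher in this comparison, over the 2235 genes with at least 5 FPKM in both illuminated groups 38.5%, and over 459 other genes listed higher after light in both genotypes 20.3%. In the dark 13.10% of the 6223 genes were listed higher and 17.56% lower. None of the 11 was listed there in either direction, and their genotype ratios ran from 0.872 (GPAT5) to 1.76 (CYP86B1). Their median genotype ratio in the light was 2.20, beside 1.34 over the 61 genes and 1.35 over the 6004.

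A list of 19 suberin genes was assembled after these values had been seen, so its counts describe and test nothing. Of its genes 17 appear in some table, 13 with all 4 means, and GPAT5, CYP86B1 and ABCG6 are among the 61. Over all 6223 genes, 32.2% were listed higher after light and 30.1% lower in 35S:miR396a, and 25.4% and 36.1% in Col-0. The list counts include genes without 4 known means. In 35S:miR396a 12 of the suberin genes were listed higher after light and 1 lower, and in Col-0 11 higher and 1 lower, with 10 higher in both. The exception in both genotypes was FAR1 (AT5G22500), a reductase that makes suberin alcohols, with 14.9 FPKM in illuminated and 189 FPKM in dark 35S:miR396a, against 10.8 FPKM in illuminated and 247 FPKM in dark Col-0. RWP1, the feruloyl transferase of suberin also called ASFT, missed the rule by its Col-0 ratio alone, with 116 FPKM in illuminated and 16.9 FPKM in dark 35S:miR396a, against 80.6 FPKM in illuminated and 20.3 FPKM in dark Col-0. FAR5 missed it by level, at 6.78 FPKM in illuminated and 1.16 FPKM in dark 35S:miR396a, against 3.99 FPKM in illuminated and 0.600 FPKM in dark Col-0. RWP1 and FAR5 were listed higher after light in each genotype. MYB41, a transcription factor that activates suberin synthesis, had 18.8 FPKM in illuminated and 0.466 FPKM in dark 35S:miR396a, against 7.40 FPKM in illuminated and 2.48 FPKM in dark Col-0. Between the illuminated groups, 7 of the 13 suberin genes with all 4 means were listed higher in 35S:miR396a. No suberin gene was listed lower there. Over all 6223 genes, which also have all 4 means, 42.3% were listed higher and 33.5% lower. Of the 7, CYP86A1 and MYB93 were also listed higher in dark 35S:miR396a, at log2 folds of 1.41 and 1.03. They were not listed for light in either genotype. MYB41 was listed lower in the dark, at −2.43. Dark shares over the 6223 genes were 13.10% higher and 17.56% lower. A matching list of 13 cutin genes, 9 in some table and 4 with all 4 means, contained none of the 61. After light, 0 were listed higher and 3 lower in 35S:miR396a, and 3 higher and 1 lower in Col-0. In illuminated 35S:miR396a 5 were listed lower and none higher than in illuminated Col-0. The shares over the 6223 genes do not have the same base, since the cutin counts include genes without all 4 means. GPAT8 and ABCG32, both among the 5 listed lower, have no known dark mean. No contrast between the lists was tested. The 8 Casparian-strip genes of a further list appeared in no table. Among root markers, PYK10, a root beta-glucosidase, had 6636 FPKM in illuminated and 3007 FPKM in dark 35S:miR396a. It was listed in no comparison with a Col-0 group, so its Col-0 means are unknown. No genotype difference was called for it. The other 4 root markers that appear in a table lay between 0.420 and 4.29 FPKM where a mean was known, and RSL4 was in no table. Of these, WOX5 was listed higher in illuminated 35S:miR396a than in illuminated Col-0, at 1.18 against 0.420 FPKM. No root marker was listed lower in that comparison. The part of the root markers in the suberin values was not tested.

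**Figure D3:**
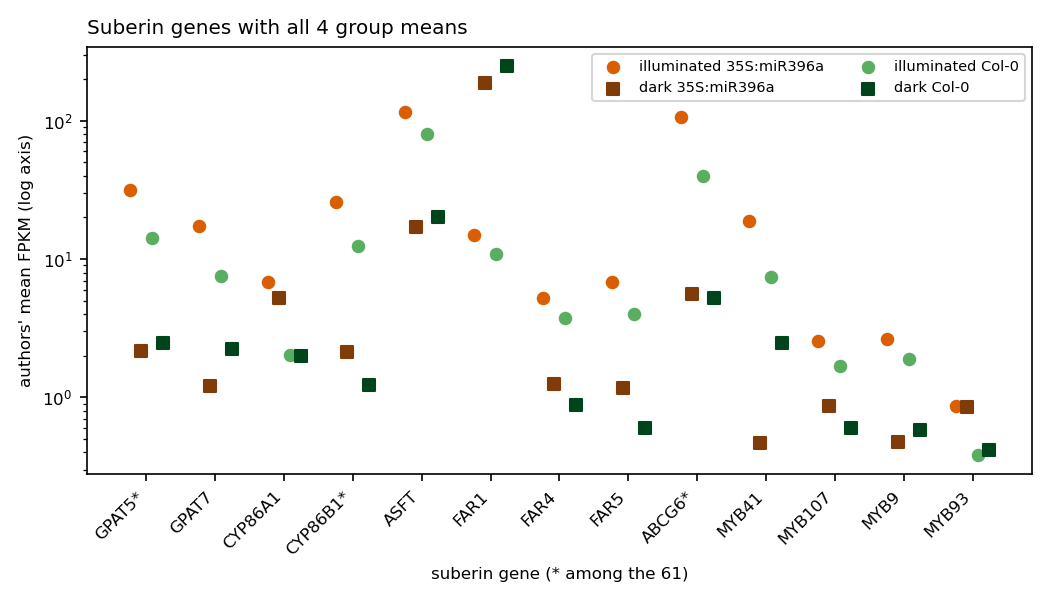
Authors' mean FPKM (vertical, log axis, no error available) of the 13 suberin genes with all 4 means, as circles for illuminated and squares for dark seedlings, 35S:miR396a left of Col-0; an asterisk marks genes among the 61. GPAT5, CYP86B1 and ABCG6 stand higher in both illuminated groups than in the dark, and FAR1 stands lower.

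A set of 8 genes has roles in the cell wall. AT4G33610, a glycine-rich protein, had 335 FPKM in illuminated and 18.7 FPKM in dark 35S:miR396a, against 128 FPKM in illuminated and 17.7 FPKM in dark Col-0. AT1G55990, also glycine-rich, had 107 FPKM in illuminated and 5.36 FPKM in dark 35S:miR396a, against 39.3 FPKM in illuminated and 5.86 FPKM in dark Col-0. Their transcripts are 92.3% identical over the 74.3% of AT1G55990 that aligns, so the authors' counting could have split reads between them and both levels are uncertain. PELPK2, a hydroxyproline-rich wall protein, had 70.7 FPKM in illuminated and 3.43 FPKM in dark 35S:miR396a, against 40.6 FPKM in illuminated and 5.76 FPKM in dark Col-0. ECS1, a cell-wall protein, had the largest light ratios of the 8, 71.5 in 35S:miR396a and 74.7 in Col-0, at 43.8 FPKM in illuminated and 0.613 FPKM in dark 35S:miR396a, against 57.2 FPKM in illuminated and 0.766 FPKM in dark Col-0. AT1G70720, a pectin methylesterase inhibitor-like protein, had 13.6 FPKM in illuminated and 0.856 FPKM in dark 35S:miR396a, against 6.296 FPKM in illuminated and 0.973 FPKM in dark Col-0. The light ratios of PELPK2 and AT1G70720 were 20.6 and 15.8 in 35S:miR396a and 7.05 and 6.47 in Col-0. LAC5, a laccase, had 10.7 FPKM in illuminated and 1.54 FPKM in dark 35S:miR396a, against 8.76 FPKM in illuminated and 1.88 FPKM in dark Col-0. The peroxidase AT1G68850 had 12.8 FPKM in illuminated and 1.90 FPKM in dark 35S:miR396a, against 14.96 FPKM in illuminated and 2.17 FPKM in dark Col-0. AT2G22510, a hydroxyproline-rich glycoprotein, had 47.8 FPKM in illuminated and 7.54 FPKM in dark 35S:miR396a, against 38.8 FPKM in illuminated and 7.81 FPKM in dark Col-0. AT4G33610, AT1G55990 and AT1G70720 were listed higher in illuminated 35S:miR396a than in illuminated Col-0, and the other 5 were not listed. That comparison listed 42.3% of the 6223 genes higher and 33.5% lower.

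Of 7 genes with plastid proteins, grouped with the values known, 5 were listed lower in illuminated 35S:miR396a than in illuminated Col-0. Listed lower in this comparison were 33.5% of the 6223 genes, 39.1% of the 2235 and 31.2% of the 459. CDSP32 (AT1G76080, chromosome 1, 28547786 to 28549586), a thioredoxin-like chloroplast protein of drought and oxidative stress, had 72.0 FPKM in illuminated and 11.2 FPKM in dark 35S:miR396a, against 370 FPKM in illuminated and 11.3 FPKM in dark Col-0. THI1 (AT5G54770, chromosome 5, 22246519 to 22248332), which makes the thiazole part of thiamine, had 202 FPKM in illuminated and 48.3 FPKM in dark 35S:miR396a, against 774 FPKM in illuminated and 54.7 FPKM in dark Col-0. In the dark the levels of both genes in 35S:miR396a were 0.993 and 0.883 times Col-0 and were not listed. FADA, a desaturase of plastid phosphatidylglycerol, had 16.2 FPKM in illuminated and 0.956 FPKM in dark 35S:miR396a, against 58.0 FPKM in illuminated and 2.39 FPKM in dark Col-0. CGLD27, a protein conserved in the green lineage, had 10.4 FPKM in illuminated and 1.496 FPKM in dark 35S:miR396a, against 36.6 FPKM in illuminated and 2.08 FPKM in dark Col-0. AOC2, the allene oxide cyclase of jasmonate synthesis, had 10.6 FPKM in illuminated and 0.560 FPKM in dark 35S:miR396a, against 23.5 FPKM in illuminated and 1.06 FPKM in dark Col-0. CDSP32, THI1, FADA, CGLD27 and AOC2 were the 5 listed lower. FIB, a plastoglobule fibrillin, and VTE1, the tocopherol cyclase of vitamin E synthesis, were not listed. FIB had 47.1 FPKM in illuminated and 6.63 FPKM in dark 35S:miR396a, against 45.7 FPKM in illuminated and 10.1 FPKM in dark Col-0. VTE1 had 10.1 FPKM in illuminated and 1.44 FPKM in dark 35S:miR396a, against 7.81 FPKM in illuminated and 1.56 FPKM in dark Col-0. The median light ratio of the group was 7.04 in 35S:miR396a and 17.58 in Col-0, and the median genotype ratio in the light was 0.284, the lowest of the role groups. The green-tissue markers, listed lower in illuminated 35S:miR396a as stated, moved the same way, and their part was not tested.

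Light signalling and flavonoid synthesis were represented by 4 genes. RUP2 (AT5G23730, chromosome 5, 8005097 to 8006630), the WD40 repressor of the UV-B photoreceptor UVR8, had 45.7 FPKM in illuminated and 3.53 FPKM in dark 35S:miR396a, against 34.1 FPKM in illuminated and 8.05 FPKM in dark Col-0. TZP, a zinc-knuckle protein of phytochrome signalling, had 9.97 FPKM in illuminated and 1.60 FPKM in dark 35S:miR396a, against 19.2 FPKM in illuminated and 3.61 FPKM in dark Col-0. In the dark, RUP2 and TZP were at 0.438 and 0.444 times Col-0. AT2G47890, a B-box zinc-finger protein, had 52.4 FPKM in illuminated and 4.03 FPKM in dark 35S:miR396a, against 11.3 FPKM in illuminated and 2.79 FPKM in dark Col-0, and an annotated gene (AT2G47895) overlaps it. CHIL (AT5G05270, chromosome 5, 1563286 to 1565324), a chalcone isomerase-like protein that aids flavonoid synthesis, had 11.9 FPKM in illuminated and 2.71 FPKM in dark 35S:miR396a, against 60.4 FPKM in illuminated and 3.29 FPKM in dark Col-0. AT2G47890 was listed higher and CHIL lower in illuminated 35S:miR396a than in illuminated Col-0, at 4.64 and 0.196 times Col-0, while RUP2 and TZP were listed lower in dark 35S:miR396a than in dark Col-0 and were not listed in the light. Over the 6223 genes 42.3% were listed higher and 33.5% lower in the light, and 13.10% and 17.56% in the dark.

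The pathway lists around these genes shared few members with the 61. Beside their counts stand the shares over all 6223 genes, 32.2% higher and 30.1% lower after light in 35S:miR396a and 25.4% higher and 36.1% lower in Col-0. The list counts include genes without 4 known means, so counts and shares do not have the same base. Nothing particular to a list was tested. Of 13 flavonoid enzymes, CHIL was the only one among them, and 7 were listed higher after light in 35S:miR396a and 9 in Col-0, none lower. Of 14 photoreceptor-repression and E3 genes RUP2 was the only one, with 2 listed higher and 2 lower in 35S:miR396a and 2 higher and 3 lower in Col-0. Of 16 photoprotection genes VTE1 was the only one, with 9 higher and 1 lower in 35S:miR396a and 11 higher and 1 lower in Col-0. None of the 61 was among 10 flavonoid regulators (5 higher and 2 lower in 35S:miR396a, 4 and 0 in Col-0), 23 light-signalling transcription factors (10 and 7, 4 and 10), 3 DNA photorepair genes (2 and 0, 2 and 0) or 12 clock genes (5 and 1, 1 and 4). The same held for 8 small heat-shock genes (8 higher and 0 lower in 35S:miR396a, 2 and 1 in Col-0), 9 seed-reserve genes (7 and 0, 6 and 0) and 9 gibberellin oxidases (3 and 2, 3 and 1).

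Of 7 genes of specialised metabolism none was listed between the genotypes in the light. Over all 6223 genes 42.3% were listed higher and 33.5% lower in that comparison, and the group was formed with the values known. AT3G57020, annotated as a phosphotriesterase-like protein, had 106 FPKM in illuminated and 1.24 FPKM in dark 35S:miR396a, against 69.9 FPKM in illuminated and 0.890 FPKM in dark Col-0. CYP81F4, a P450 that modifies indole glucosinolates, had 168 FPKM in illuminated and 22.9 FPKM in dark 35S:miR396a, against 91.7 FPKM in illuminated and 15.7 FPKM in dark Col-0, and lies over the antisense gene AT4G37409. TPS-CIN (AT3G25820), a cineole synthase, had 12.2 FPKM in illuminated and 0.890 FPKM in dark 35S:miR396a, against 13.4 FPKM in illuminated and 0.430 FPKM in dark Col-0. Its neighbour AT3G25830 is 100% identical over 85.1% of it, so its level is uncertain. AT4G27560, a glycosyltransferase with a copy 96.0% identical over 77.8% of it (AT4G27570), had 12.1 FPKM in illuminated and 0.723 FPKM in dark 35S:miR396a, against 13.6 FPKM in illuminated and 1.64 FPKM in dark Col-0. MES9, a methyl esterase, had 22.3 FPKM in illuminated and 2.86 FPKM in dark 35S:miR396a, against 18.4 FPKM in illuminated and 3.62 FPKM in dark Col-0. The hydrolase AT4G36610 had 36.4 FPKM in illuminated and 3.37 FPKM in dark 35S:miR396a, against 22.7 FPKM in illuminated and 4.24 FPKM in dark Col-0. AT4G27560, MES9 and AT4G36610 had light ratios of 16.7, 7.81 and 10.8 in 35S:miR396a and of 8.31, 5.08 and 5.34 in Col-0. The methyltransferase AT5G38020 had 18.3 FPKM in illuminated and 1.95 FPKM in dark 35S:miR396a, against 12.6 FPKM in illuminated and 2.05 FPKM in dark Col-0.

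The 11 genes of transport, stress and defence included the most abundant transcripts. COR413-PM1 (AT2G15970, chromosome 2, 6949851 to 6951192), a cold-regulated plasma-membrane protein, had 3252 FPKM in illuminated and 223 FPKM in dark 35S:miR396a, against 1465 FPKM in illuminated and 308 FPKM in dark Col-0. AT1G13930, annotated as oleosin-B3-like, had 753 FPKM in illuminated and 53.2 FPKM in dark 35S:miR396a, against 624 FPKM in illuminated and 108 FPKM in dark Col-0. By illuminated level the 5 highest genes were COR413-PM1, AT1G13930, AT4G33610, THI1 and CYP81F4 in 35S:miR396a and COR413-PM1, THI1, AT1G13930, CDSP32 and MSRB6 in Col-0. DTX1, a MATE efflux carrier, had the highest genotype ratio in the light of all 61, 4.97, with 29.2 FPKM in illuminated and 3.25 FPKM in dark 35S:miR396a, against 5.86 FPKM in illuminated and 1.11 FPKM in dark Col-0, and an annotated gene (AT2G04039) overlaps part of it. AMT1;2, an ammonium transporter, had 26.2 FPKM in illuminated and 6.12 FPKM in dark 35S:miR396a, against 13.0 FPKM in illuminated and 2.90 FPKM in dark Col-0. ABCG23, an ABC transporter, had 9.87 FPKM in illuminated and 1.08 FPKM in dark 35S:miR396a, against 5.66 FPKM in illuminated and 0.500 FPKM in dark Col-0. DTX1, AMT1;2 and ABCG23 were also listed higher in dark 35S:miR396a than in dark Col-0. AT1G68570, a transporter of the nitrate and peptide family, had 7.56 FPKM in illuminated and 1.36 FPKM in dark 35S:miR396a, against 10.2 FPKM in illuminated and 0.770 FPKM in dark Col-0, with a gene on the other strand (AT1G68568) overlapping it. CEP3, a cysteine endopeptidase, had 31.9 FPKM in illuminated and 3.15 FPKM in dark 35S:miR396a, against 78.7 FPKM in illuminated and 6.60 FPKM in dark Col-0. AT2G43550, a defensin-like protein, had 14.9 FPKM in illuminated and 2.66 FPKM in dark 35S:miR396a, against 43.8 FPKM in illuminated and 2.62 FPKM in dark Col-0. In the light CEP3 and AT2G43550 were at 0.405 and 0.340 times Col-0. The LEA-family gene AT1G54540 had 21.3 FPKM in illuminated and 1.28 FPKM in dark 35S:miR396a, against 13.0 FPKM in illuminated and 1.52 FPKM in dark Col-0. The annexin ANNAT7 had 7.66 FPKM in illuminated and 1.02 FPKM in dark 35S:miR396a, against 6.16 FPKM in illuminated and 1.15 FPKM in dark Col-0. AT3G56290 had 24.1 FPKM in illuminated and 3.08 FPKM in dark 35S:miR396a, against 41.1 FPKM in illuminated and 9.68 FPKM in dark Col-0. COR413-PM1, DTX1 and AMT1;2 were listed higher and CEP3 and AT2G43550 lower in illuminated 35S:miR396a than in illuminated Col-0. That comparison listed 42.3% of the 6223 genes higher and 33.5% lower.

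No role was assigned to 6 genes. AT3G52740 had 5.02 FPKM in illuminated and 0.120 FPKM in dark 35S:miR396a, against 5.42 FPKM in illuminated and 0.346 FPKM in dark Col-0, the lowest illuminated level of the 61 in 35S:miR396a. AT2G36885 had 29.0 FPKM in illuminated and 5.46 FPKM in dark 35S:miR396a, against 100.4 FPKM in illuminated and 6.36 FPKM in dark Col-0. AT5G01015 had 5.37 FPKM in illuminated and 0.940 FPKM in dark 35S:miR396a, against 25.8 FPKM in illuminated and 1.31 FPKM in dark Col-0. Both were listed lower in illuminated 35S:miR396a than in illuminated Col-0. AT4G24130, of the DUF538 family, had 103 FPKM in illuminated and 12.5 FPKM in dark 35S:miR396a, against 49.1 FPKM in illuminated and 10.9 FPKM in dark Col-0, and was listed higher in illuminated 35S:miR396a. AT5G07475, a cupredoxin, had 21.5 FPKM in illuminated and 3.11 FPKM in dark 35S:miR396a, against 14.1 FPKM in illuminated and 2.73 FPKM in dark Col-0. AT3G51642 had 18.3 FPKM in illuminated and 3.203 FPKM in dark 35S:miR396a, against 10.5 FPKM in illuminated and 1.10 FPKM in dark Col-0. Neither was listed between the genotypes in the light. Over all 6223 genes the shares there were 42.3% higher and 33.5% lower.

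The genotype comparison was not used to choose the genes, although it draws on the same group means. In the light, 17 of the 61 genes (27.87%) were listed as higher and 12 (19.67%) as lower in 35S:miR396a, relative to Col-0, while 32 were not listed. Over the 6223 genes 42.3% were listed higher and 33.5% lower, and over the 2235 with at least 5 FPKM in both illuminated groups 38.5% and 39.1%. Genes listed higher after light in both genotypes but outside the 61 numbered 459, of which 20.3% were listed higher and 31.2% lower in illuminated 35S:miR396a. The share of the 61 genes listed higher lay below that of the 6223 and above that of the 459, and the share listed lower lay below both. The tables hold called genes only, so a gene not listed for light had to be listed in other comparisons to count among the 6223. No test of these shares was made.

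The 17 higher genes had illuminated levels between 11.5 and 3252 FPKM in 35S:miR396a and between 5.32 and 1465 FPKM in Col-0, at 2.01 to 4.97 times Col-0. Their light ratios had medians of 14.6 in 35S:miR396a and 5.74 in Col-0, and 16 of the 17 had the larger ratio in 35S:miR396a, with AMT1;2 the exception. The 12 lower genes had illuminated levels between 5.37 and 202 FPKM in 35S:miR396a and between 23.5 and 774 FPKM in Col-0, at 0.0517 to 0.452 times Col-0. Their light ratios had medians of 6.69 in 35S:miR396a and 19.0 in Col-0, and MSRB6 and FBA5 alone had the larger ratio in 35S:miR396a. Both sets were picked by the genotype ratio in the light, and most of their genes were not listed in the dark. A larger light ratio in the genotype with the higher illuminated level follows largely from that choice and supports nothing. In the authors' deposited table the log2 folds were 2.31 for DTX1, 2.19 for AT2G47890, 2.18 for AT4G03540, 1.76 for AT1G03700 and 1.56 for AT5G13900 at the high end. They were −4.28 for FBA5, −2.36 for CDSP32, −2.35 for CHIL, −2.26 for AT5G01015 and −1.92 for THI1 at the low end.

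In the dark, 5 genes (8.20%) were listed as higher and 11 (18.03%) as lower in 35S:miR396a, relative to Col-0, beside 13.10% and 17.56% of the 6223 genes. The shares were 4.30% and 17.45% over the 2235 genes and 8.71% and 10.89% over the 459. The higher genes were DTX1, AT3G51642, ABCG23, AMT1;2 and TPS-CIN, with deposited log2 folds of 1.56, 1.59, 1.14, 1.10 and 1.05. The lower ones included FBA5, MSRB6 and AT3G56290 at −6.06, −3.24 and −1.69, and AT3G52740, FADA, AT4G27560, RUP2, TZP, SDR1, CEP3 and AT1G13930. AMT1;2 and DTX1 were listed higher in both conditions and CEP3, FADA, FBA5 and MSRB6 lower in both. Of the 17 genes higher in the light 15 were not listed in the dark, nor were 8 of the 12 lower ones, and 22 genes were listed in neither condition. Most of the 6223 genes were not listed in the dark either, with 13.10% listed higher and 17.56% lower. These counts describe the genes, and nothing particular to them was tested. For MSRB6 and FBA5 the dark gap was wider than the light gap, with dark ratios of 0.117 and 0.0160 and light ratios of 0.365 and 0.0517 times Col-0. Their levels in dark 35S:miR396a rest on estimates of 55 and 18 pooled fragments, so the dark ratios are imprecise.

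**Figure D4:**
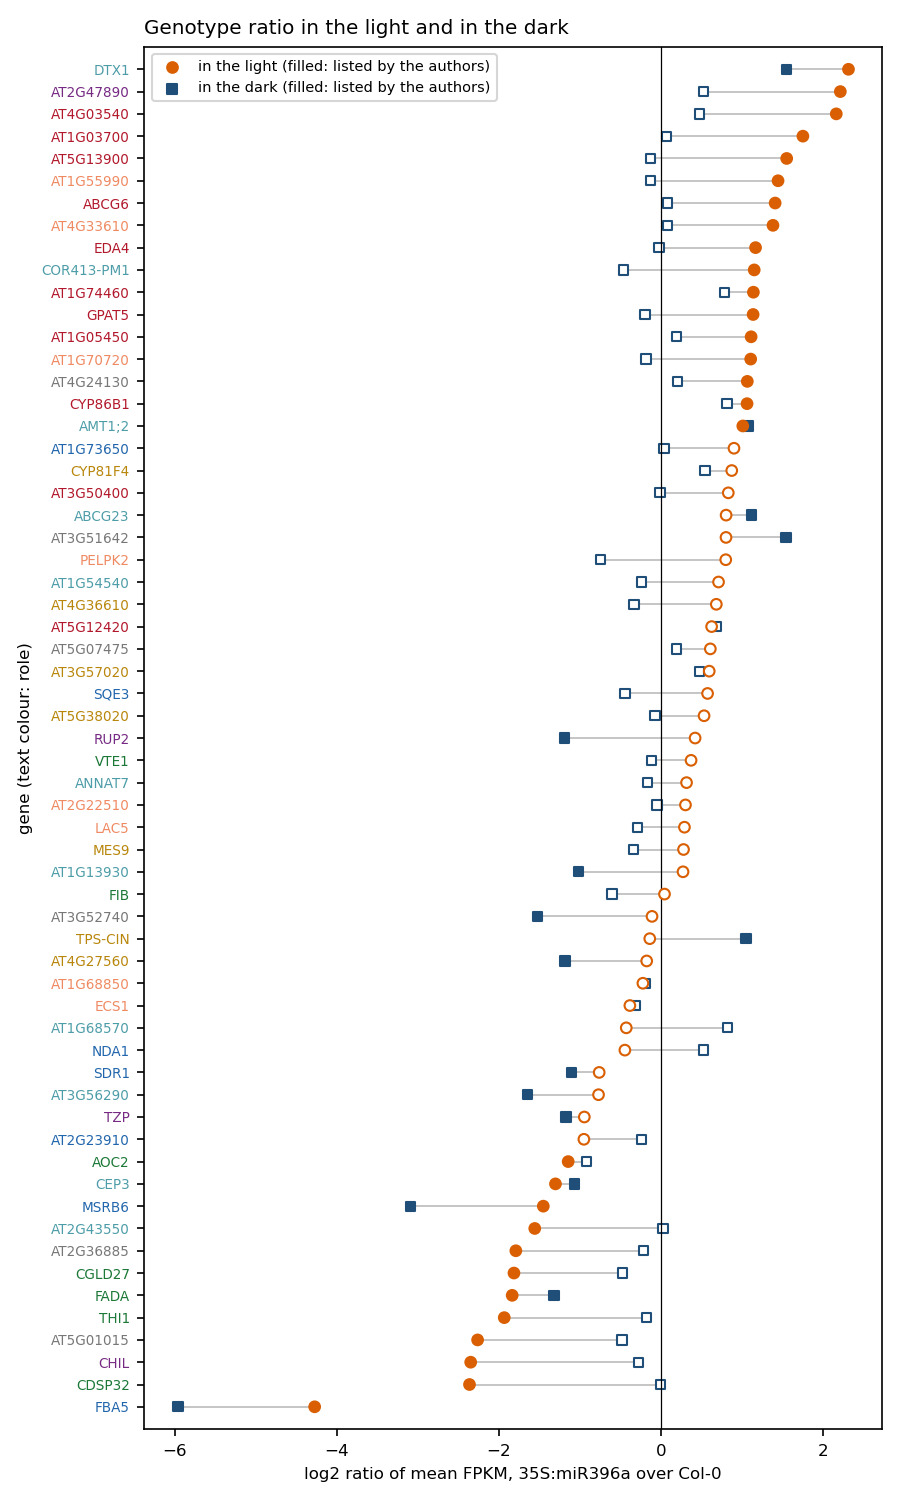
Log2 ratio of mean FPKM, 35S:miR396a over Col-0, in the light (circles) and in the dark (squares) for the 61 genes in order of the light ratio; filled symbols are listed by the authors and gene names are coloured by role. The 9 filled lipid-polymer genes lie above 2-fold, 5 plastid genes are filled at the lower end, and FBA5 stands alone at the bottom in both conditions.

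On the log2 scale, the light ratio of 35S:miR396a less that of Col-0 had a median of 0.575 over the 61 genes, 0.339 over the 6223 and −0.105 over the 459. The genotype log2 ratio had medians of 0.421 in the light and −0.166 in the dark over the 61 genes, against 0.453 and −0.0791 over the 6223. When each illuminated group was set against the dark group of the other genotype, 49 of the 61 genes were still at least 4 times higher in both. The other 12 were AMT1;2, AT1G74460, AT2G23910, AT2G47890, AT3G51642, AT3G56290, AT4G24130, CHIL, DTX1, FBA5, THI1 and TZP.

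Sequence around the start of transcription was not used by the rule. In windows from 250 bases before to 50 after the annotated start, searched on both strands, CACATG was present in 18 of the 61 genes (29.5%), in 12.9% of 27443 protein-coding nuclear genes and in 15.5% of 6046 genes with 4 known means. The evening element AAATATCT was in 11.5%, 5.65% and 6.68% of the same sets, and the ACGT core in 65.6%, 49.9% and 55.7%. The G-box CACGTG, which contains that core, was in 9.84%, 7.68% and 10.5%. The I-box GATAAG was in 16.4%, 14.6% and 17.5%, the E-box CATATG in 8.20%, 8.07% and 8.42%, and the heat-shock type GAANNTTC in 8.20%, 11.6% and 12.4%. TATAAA was in 52.5%, 52.1% and 53.7% and the MYB-type ACCTACC in 3.28%, 1.38% and 1.59%. Within the 61, the G-box was in 0 of the 17 genes listed higher in illuminated 35S:miR396a and in 4 of the 12 listed lower (2 of the 12 within 200 bases before the start), and CACATG was in 6 of the 17 and 5 of the 12. TATAAA was in 11 of the 17 and 3 of the 12, and the ACGT core in 10 of the 17 and 10 of the 12. The I-box, CATATG, heat-shock type, evening element and MYB-type were in 3, 2, 2, 1 and 1 of the 17. In the 12 they were in 3, 1, 1, 2 and 1. Within 200 bases before the start alone, the ACGT core was in 44.3%, 38.4% and 43.9% of the 3 sets, the G-box in 3.28%, 5.64% and 7.99%, and CACATG in 24.6%, 8.99% and 11.6%. The higher ACGT share of the 61 over genes with 4 known means was thus not seen in the shorter window. A match is a description of the letters, and no test was made. The 61 transcripts had a median length of 1345 bases, and 23.0% had a single exon, beside 1568 bases and 19.5% in 2156 other genes with at least 5 FPKM in both illuminated groups. Another annotated gene overlapped 13 of the 61. The overlap was 100 bases or more for 8, and strand use in the counting is not given in the sources used here.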

How the data were processed

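RNA from 12 libraries in 4 groups of 3 was sequenced on the BGISEQ-500, per the labels' protocols. The submitters' processing notes name HISAT, Bowtie2 and the TAIR10 build without versions. The 6 deposited tables hold called genes only. Per the file headers, each gives the mean FPKM of a pair of groups made by the authors, the log2 fold change between them, and DEGseq's p-value with its q-value. The series' design text names NOISeq instead. Deposited p-values carry counting error of pooled reads only. All listed genes have a log2 fold of at least 1.0 in size and a q-value of at most 0.001, tested on the files.

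Group means were joined across the tables, in which they differed for 0 genes, and the rule for the 61 genes was applied to them. No model was fitted, because no value of a single library was used here: counts of the authors' calls replace the planned tests. The genes, pathway lists and role groups were chosen with earlier results of these data known. Named were members of a pathway list, the 10 largest light ratios and 5 highest illuminated levels per genotype, the 5 highest and lowest genotype ratios in the light, the 3 largest dark folds each way and the 3 genes on each side of a threshold; the other members, suberin genes and markers were named after their values were seen. Pooled fragments per group were estimated by solving the deposited folds and p-values, a step tested on simulated data; they stand for depth, and intervals were not computed from them. Symbols, positions and promoter windows come from the RefSeq annotation of TAIR10.1. Similar transcripts were found with BLAST+ 2.17.0, and other steps used Python 3.11.15, pandas 2.3.3 and numpy 2.4.6. Alternatives changed the ratio, the level, the pseudocount (0.01 in the median difference, or 1), the call threshold and the promoter window. Columns of other series numbered 0.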

Additional observations from a re-analysis of the deposited data

How the results depend on the processing

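At a light ratio of at least 2 in place of 4, 232 genes met the rule, at 8 there were 17, and at an illuminated level of at least 1 FPKM there were 119. With a deposited log2 fold beyond 2, the genes listed between the genotypes numbered 3 higher and 4 lower in the light and 0 higher and 2 lower in the dark. Counting only genes with at least 5 FPKM in 1 of the groups compared left 1 higher and 4 lower in the dark. With 200 bases before the start as the window, the G-box was in 3.28% of the 61 genes and 7.99% of genes with 4 known means, the ACGT core in 44.3% and 43.9%, and TATAAA in 37.7% and 41.5%. The G-box and ACGT shares thus fell more in the 61 than in those genes, and the cause was not tested. Of the 12 genes listed lower in illuminated 35S:miR396a, 2 held the G-box there. Another 14 summary values stayed within their limits, among them 60 genes under a rule on the deposited fold, 59 of them shared with the 61, and the median difference of log2 light ratio, at 0.433 with a pseudocount of 1 and 0.619 over genes with at least 1 FPKM in both dark groups. The 122 light ratios of single genes kept their direction when the deposited log2 fold replaced the ratio of means. The comparison with the other genotype's dark group was chosen after seeing the data. No paired analysis was possible because the tables hold means of groups, with no value per library, and for the same reason no replicate was left out.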
